A study of Saccharomyces cerevisiae with 26 samples.

Results

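Cells of budding yeast (Saccharomyces cerevisiae) that had started meiosis were kept in benomyl, and their transcripts were compared between 1 h and 4 h of that treatment. The members are the 4 arrays titled SB5 and SB8, of 26 in the series: 2 arrays of cells sampled 1 h after benomyl was given (SB5) and 2 of cells sampled 4 h after it (SB8). They were chosen by these titles alone, without use of any measured value. The series measured total RNA on Affymetrix YG_S98 arrays in 13 groups of 2 arrays each, under the title of a response to microtubule perturbation in meiosis.

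All 4 groups of the time courses started the same way. Cells were grown in YPD, which contains glucose, moved to YPA, which contains acetate, for a night at 30 °C, washed and placed in sporulation medium with 0.3% potassium acetate at room temperature. After 4 h in that medium the cells were collected on a filter and resuspended in fresh medium. For the benomyl groups this medium held benomyl from a stock of 30 mg/ml in dimethyl sulfoxide (DMSO), at 0.4% by the labels, which do not say whether the percentage is that of the stock or of benomyl itself. For the solvent groups, SD5 at 1 h and SD8 at 4 h, it held 0.4% DMSO, the solvent that the benomyl groups also received. Filtration, the change of medium and DMSO are therefore shared by benomyl and control cells, and the benomyl cells had been in sporulation conditions for the same total time as the DMSO cells of the same label. Cells sampled before filtration (SP4), cells filtered into medium without either agent (SF5, 1 h) and a second set of arrays with cells at 1 h and 4 h after filtration (SR5, SR8) served as further references. The labels give no strain, and nothing states whether the 2 arrays of a group came from separate cultures, so the p-values measure the spread between arrays, which may be technical.

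Benomyl binds beta-tubulin and blocks the assembly of microtubules, the fibres that form the spindle on which chromosomes are separated. Budding yeast cells without nitrogen and a fermentable carbon source enter meiosis, in which a cascade of regulators, with Ime1 at its start and Ndt80 in its middle, turns on first the genes of recombination and then those of the meiotic divisions and of spore formation. Benomyl is also a foreign chemical to the cell, and yeast is known to answer it through the transcription factors Yap1 and Pdr1, which raise genes of redox detoxification and drug efflux.

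Values are log2 signals after quantile normalization of the deposited signals, so that 1 unit is a 2-fold difference. A 4 h minus 1 h difference is given with the standard error of a limma model over all 26 arrays and n = 2 arrays per group. Calls were made over 7876 probe sets where limma's p, adjusted by Benjamini-Hochberg, was under 0.05, and 5464 genes with a probe set of their own were counted. The 2 benomyl 1 h arrays differed more from each other than those of any of the other groups of the courses, with a standard deviation between arrays of 0.44 against 0.129 for benomyl at 4 h and 0.138 to 0.166 for DMSO. The second-set pair at 1 h was wide as well (0.352), and that at 4 h was not (0.127). Of the 2 benomyl 1 h arrays, replicate 2 lay further from the sporulating state. The median log2 signal of 8 marker genes of sporulating cells was 7.61 in replicate 1 and 6.30 in replicate 2 at 1 h, against 9.57 and 9.67 at 4 h, 9.20 and 9.09 in DMSO at 1 h, and 4.74 to 5.37 in growing cells in YPD or YPA. The median of 8 markers of vegetative budding cells was 5.60 to 5.80 on the 4 benomyl arrays, 6.19 to 6.38 on the 4 DMSO arrays and 6.88 to 7.64 in YPD or YPA. It lay near the floor: 4 of the 8 were above log2 5.44, the filter limit, on the benomyl arrays and 5 on the DMSO arrays. CTS1 and DSE2 among them went against the median and were higher at 1 h of benomyl than of DMSO. The median of 8 haploid markers was 5.26 to 6.19 over these 8 arrays, with 3 to 6 of them above that limit. In whole cultures, fewer cells in a state and less RNA per cell cannot be told apart.

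From 1 h to 4 h under benomyl, 1644 genes rose and 1250 fell, which is 30.1% and 22.9% of the genes tested, with a median change over all genes of 0.07. Over probe sets the calls were 2006 up and 1889 down (49.5%), of which 798 and 646 changed at least 2-fold. With only these 4 arrays in the limma fit, where the spread of the 1 h pair weighs most, 555 genes rose and 365 fell, and with array weights 879 rose and 669 fell. Without replicate 1 at 1 h, 1866 rose and 1361 fell, and without replicate 2 at 1 h, 1416 rose and 1166 fell. The direction of the call was even in the main scaling (51.5% of called probe sets up), but it was 63.4% with the values as deposited (2478 up, 1428 down) and 44.5% with each array centred on its median (1803 up, 2253 down). The median change over all probe sets moved from -0.03 to 0.08 with the values as deposited and to -0.12 with median centring, so changes near these sizes have no settled direction.

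The end point of the course lay nearer to control cells early after filtration than to its own starting point. The median absolute log2 difference per probe set between benomyl at 4 h and other groups was 0.191 for filtered cells at 1 h, 0.195 for DMSO at 1 h, 0.227 for second-set cells at 4 h, 0.234 for cells before filtration, 0.307 for DMSO at 4 h and 0.433 for benomyl at 1 h. Between benomyl at 4 h and DMSO at 1 h, 925 probe sets (11.7%) were called, 495 higher and 430 lower, or 7.28% and 5.73% of genes. That comparison was added after the values were seen, and its count was 1635 with only those 4 arrays in the fit and 2162 with array weights. Between benomyl and DMSO at 4 h, 2565 probe sets (32.6%) were called, and at 1 h 4123 (52.3%).

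**Figure D1:**
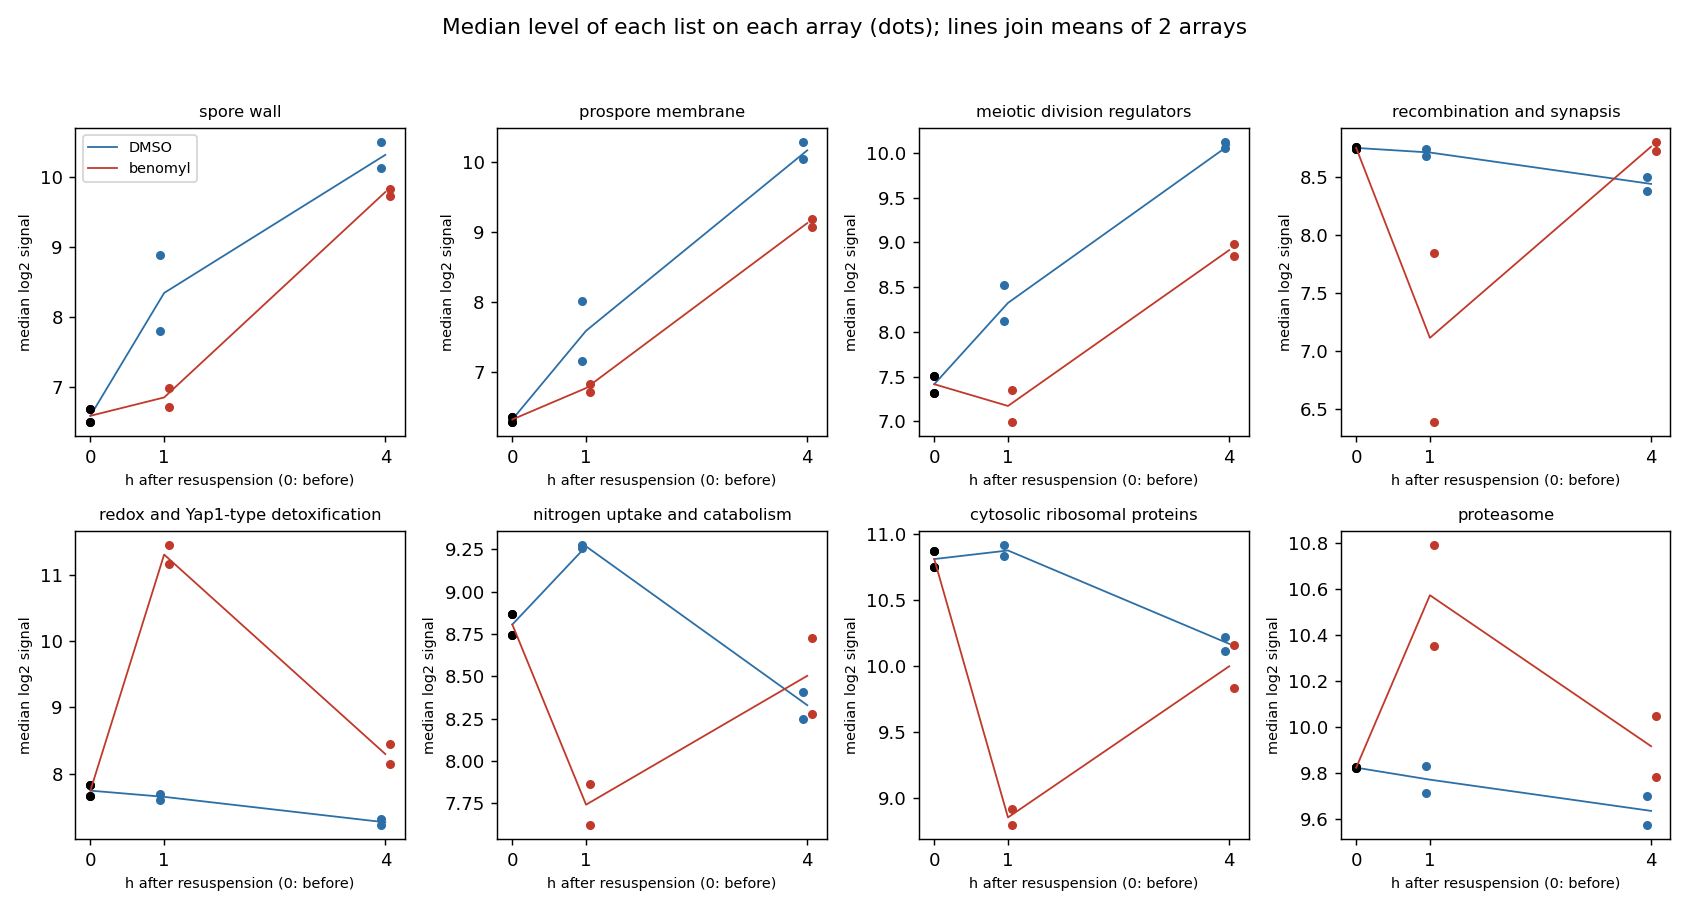
Median log2 signal of the genes of 8 lists on each array (dots) against hours after resuspension, with lines through the means of 2 arrays and cells before filtration in black at 0 h. Redox genes peaked under benomyl (red) at 1 h with medians of 11.16 and 11.45 and were at 8.46 and 8.14 by 4 h, while spore wall genes went from 6.99 and 6.72 to 9.74 and 9.84. In DMSO (blue) the spore wall medians were higher at both times, 8.89 and 7.80 at 1 h and 10.13 and 10.51 at 4 h.

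The genes that fell most were those of the chemical response. Among 32 tested genes of redox and Yap1-type detoxification, 28 fell and none rose, with a median change of -2.27, where the same genes had a median of -0.33 over the same interval in DMSO. YKL070W, a gene of uncharacterized function, fell furthest of all named genes: its log2 signal was 12.36 and 12.57 at 1 h and 6.61 and 5.96 at 4 h. The groups were far apart, and the 4 h arrays were at the level of DMSO, which was 5.96 and 5.80 at 1 h and 6.26 and 6.51 at 4 h. The fall was 6.18 ± 0.20 (limma adjusted p = 1.32e-13).

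FRM2, of the nitroreductase family, had 13.16 and 13.52 at 1 h and 7.66 and 7.33 at 4 h, a fall of 5.85 ± 0.17 (limma adjusted p = 1.26e-14). OYE3, an NADPH oxidoreductase of the old yellow enzyme family, had 12.50 and 12.77 at 1 h and 8.71 and 7.60 at 4 h. Its 2 arrays at 4 h were 1 log2 unit or more above DMSO at 4 h (6.49 and 6.52), so its fall of 4.48 ± 0.26 had not brought it back to the control level. The probe set of AAD4, a putative aryl-alcohol dehydrogenase, can match near-identical copies and is uncertain. It fell by 4.33 ± 0.17 from 12.37 and 12.37 to 8.32 and 7.76. TRR1, the cytosolic thioredoxin reductase, had 12.53 and 12.81 at 1 h and 9.45 and 9.44 at 4 h. It fell by 3.23 ± 0.12 (limma adjusted p = 3.56e-13). GLR1, glutathione reductase, had 11.65 and 11.73 at 1 h and 8.59 and 8.45 at 4 h. It fell by 3.18 ± 0.11 (limma adjusted p = 1.56e-13), and for both genes the pairs were tight and the times did not overlap. GRE2, a methylglyoxal reductase of the stress response, fell by 3.34 ± 0.24 from 10.21 and 11.08 to 7.58 and 7.03, still above the 4.74 and 4.91 of DMSO. YLR460C, of the same list, fell by 4.12 ± 0.32 to 7.62 and 6.98, above the 5.52 and 5.61 of DMSO.

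The regulator YAP1 itself had 10.06 and 10.26 at 1 h and 8.06 and 8.21 at 4 h, a fall of 2.02 ± 0.15 (limma adjusted p = 5.02e-09). At 4 h it was beside the 8.04 and 8.12 of DMSO. CIN5, which encodes a related factor, fell by 2.25 ± 0.30. It fell by 2.73 ± 0.30 in DMSO as well, from 11.79 and 11.14 to 8.88 and 8.59. The count of 28 redox genes moved little between fits: it was 25 with only the 4 arrays in the fit, 26 with array weights and 26 to 29 without each benomyl array in turn.

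Drug efflux genes fell less evenly. Of 20 tested, 13 fell and 5 rose, with a median of -1.53. The 5 risers, named after their values were seen, were DTR1, which exports dityrosine for the spore wall (3.04), the transporters QDR2 (1.15) and QDR3 (0.68), the polyamine transporter TPO4 (0.82) and HOL1 (0.66). With only the 4 arrays in the fit 1 rise and 11 falls were called. FLR1, the plasma membrane transporter whose loss makes yeast sensitive to benomyl, had 12.99 and 12.68 at 1 h and 10.37 and 8.66 at 4 h. All 4 arrays lay above DMSO, which had 7.98 and 7.85 at 1 h and 7.83 and 7.65 at 4 h, and the 4 h pair was wide. The fall of 3.31 ± 0.36 (limma adjusted p = 4.93e-07) left FLR1 1.78 ± 0.36 above DMSO at 4 h. AZR1, a transporter of the same superfamily, fell by 4.91 ± 0.33 to 5.84 and 5.59, close to the 5.64 and 5.55 of DMSO. YHK8, a presumed transporter, fell by 4.14 ± 0.24. PDR5, the main multidrug efflux pump, whose probe set is uncertain in the same way as that of AAD4, had 11.52 and 12.14 at 1 h and 10.01 and 9.83 at 4 h. PDR10, a related pump, had 13.60 and 13.69 at 1 h and 11.28 and 11.40 at 4 h. PDR5 fell by 1.91 ± 0.19 and PDR10 fell by 2.30 ± 0.15. At 4 h both stood above DMSO, by 1.19 ± 0.19 and 1.02 ± 0.15.

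Other genes stayed high throughout, among them SNQ2, a multidrug pump, and YLL056C, a gene of uncharacterized function, both picked after their values were seen. SNQ2 had 12.32 and 12.13 at 1 h and 11.71 and 11.37 at 4 h, where DMSO had 8.92 and 9.06 at 1 h and 8.01 and 7.80 at 4 h. Every benomyl array was above every DMSO array, and the distance was 3.23 ± 0.15 at 1 h and 3.64 ± 0.15 at 4 h. YLL056C had 12.91 and 12.71 at 1 h and 12.08 and 11.23 at 4 h, and it was 4.38 ± 0.31 above DMSO at 4 h. Within the course SNQ2 fell by 0.68 ± 0.15 and YLL056C fell by 1.15 ± 0.31 (limma adjusted p = 0.000951 and 0.00436). The difference from the DMSO course did not pass for either gene (limma adjusted p = 0.125 and 0.195), but that of YLL056C did with the values as deposited (-1.06, adjusted p = 0.0479) and with median centring (-1.15, adjusted p = 0.0302). With only the 4 arrays in the fit neither fall passed (limma adjusted p = 0.081 and 0.079), nor with array weights (0.0952 and 0.244), and that of YLL056C did not pass without replicate 2 at 4 h (0.104). At 4 h, 18 of 32 redox genes were higher than in DMSO and 3 were lower, and 13 of 20 efflux genes were higher and 3 lower, where 20.4% of all genes were higher and 17.6% lower.

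Other large falls were in single genes outside the redox and efflux lists and in lists of stress and protein turnover. HSP30, a plasma membrane heat shock protein, fell by 4.31 ± 0.21 from 10.68 and 11.51 to 6.75 and 6.82. SPI1, a cell wall protein of stressed and stationary cells, fell by 4.00 ± 0.20 from 11.98 and 11.95 to 7.97 and 7.96. ALD6, the cytosolic aldehyde dehydrogenase that makes acetate, had 11.24 and 11.05 at 1 h and 6.62 and 6.48 at 4 h, a fall of 4.59 ± 0.34. YDL218W, of uncharacterized function, had 10.98 and 8.79 at 1 h and 4.76 and 4.79 at 4 h. The 1 h arrays were more than 2 log2 units apart, so that the size of its fall of 5.11 ± 0.41 rests on which array is taken. Of 36 genes of general stress and carbohydrate reserves, 20 fell and 1 rose (median -0.69), and 8 of 36 fell with only the 4 arrays in the fit. Without replicate 1 at 1 h 5 rose. The 1 riser with all arrays was SGA1, a glucoamylase of sporulating cells that breaks down glycogen, with 9.21 and 8.29 at 1 h and 12.41 and 12.24 at 4 h. In DMSO 19 of the 36 fell as well (median -0.50).

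Of 33 proteasome genes 27 fell and none rose, with a median of -0.71, where 22.9% of all genes fell. RPN4, the transcription factor of the proteasome genes, had 11.26 and 11.86 at 1 h and 9.82 and 9.88 at 4 h, a fall of 1.71 ± 0.16 (limma adjusted p = 4.83e-08) toward the 8.83 and 8.84 of DMSO. PRE8, a subunit of the core particle, fell by 1.08 ± 0.13 from 11.94 and 11.80 to 10.71 and 10.87. The count of proteasome genes that fell was 5 with only the 4 arrays in the fit and 17 with array weights, and the median was -1.06 within scan day 1 and -0.42 within scan day 2. In these 2 fits 365 and 669 of all 5464 genes fell. Heat shock chaperones gave 13 falls and 1 rise of 24 (median -0.49), the riser being HSC82, an Hsp90 gene named after its value was seen, and the falls were 4 with only the 4 arrays in the fit, 5 with array weights and 8 without replicate 2 at 4 h.

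The largest rises were in genes of spore formation. Of 29 spore wall genes 24 rose and 3 fell, with a median of 3.07, and of 27 prospore membrane genes 23 rose and 1 fell, with a median of 2.29. The gene that fell was SEC9, a SNARE of vesicle fusion, named after its value was seen (-1.01). In DMSO the same lists had medians of 2.54 and 2.35, with 26 and 24 genes rising. YPR078C, a gene of unknown function, rose most: 6.39 and 6.39 at 1 h and 11.38 and 11.38 at 4 h, a rise of 4.99 ± 0.34 (limma adjusted p = 1.52e-09). SPR2, a putative spore wall protein, had 5.57 and 5.78 at 1 h and 10.55 and 10.68 at 4 h, a rise of 4.94 ± 0.33. Both were low and tight at 1 h and still below DMSO at 4 h, which had 12.50 and 12.60 for YPR078C and 11.49 and 11.57 for SPR2.

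CDA1 and CDA2 encode the chitin deacetylases that make the chitosan layer of the spore wall. CDA1 had 6.29 and 5.18 at 1 h and 9.93 and 10.18 at 4 h, a rise of 4.32 ± 0.31. CDA2 had 7.89 and 7.16 at 1 h and 11.67 and 11.86 at 4 h, a rise of 4.24 ± 0.23. For neither gene did an array of one time reach those of the other. SPO19, a prospore membrane protein, rose by 4.25 ± 0.39 from 5.18 and 4.70 to 9.19 and 9.19. RRT12, a subtilisin-like protease of spore formation, rose by 4.65 ± 0.34, and YEH1, a steryl ester hydrolase, by 4.72 ± 0.24. PES4, a putative RNA-binding protein, had 6.74 and 5.98 at 1 h and 10.81 and 10.98 at 4 h. All 3 were lower at both 1 h arrays than at both 4 h arrays. RRT5, with 7.74 and 7.13 at 1 h and 12.21 and 12.44 at 4 h, is among the 10 largest rises. So is YDL186W, with 5.57 and 4.14 at 1 h and 9.36 and 9.62 at 4 h. The kinase SPS1, needed for spore packaging, rose by 3.78 ± 0.27 from 6.11 and 6.55 to 10.11 and 10.11. SMK1, a mitogen-activated kinase of spore wall assembly, rose by 3.70 ± 0.28 from 5.37 and 5.31 to 8.90 and 9.17. For SPS1 and SMK1 the rise in DMSO was of like size (3.83 ± 0.27 and 3.38 ± 0.28), and the test of the difference did not pass (limma adjusted p = 0.92 and 0.541). That test hung on the DMSO 1 h pair: without its replicate 2 it was 0.63 (adjusted p = 0.0429) for SPS1 and 0.99 (0.00614) for SMK1, and without its replicate 1 it was -0.73 (0.0189) for SPS1.

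The 3 spore wall genes that fell were DIT1, SPS100 and RRT8. DIT1, which is needed for the outermost dityrosine layer, had 5.97 and 6.71 at 1 h and 5.30 and 5.27 at 4 h under benomyl and 5.43 and 5.34 at 1 h and 6.57 and 6.87 at 4 h in DMSO. It thus fell by 1.06 ± 0.24 under benomyl (limma adjusted p = 0.00113, and 0.0693 with only the 4 arrays in the fit) and rose by 1.34 ± 0.24 in DMSO. Its levels at 4 h of benomyl and at 1 h of DMSO were dim, below the filter limit of log2 5.44. The 2 courses differed by -2.39 ± 0.33 (limma adjusted p = 1.51e-05). SPS100, a spore wall gene of late maturation, was high at 1 h of benomyl and then lower: 9.88 and 9.34 at 1 h and 7.88 and 7.95 at 4 h, against 7.67 and 7.80 at 1 h and 7.34 and 7.09 at 4 h in DMSO. Its fall was 1.69 ± 0.15 (limma adjusted p = 5.64e-08). RRT8, which encodes a protein of lipid droplets and was picked after its value was seen, fell by 0.67.

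**Figure D2:**
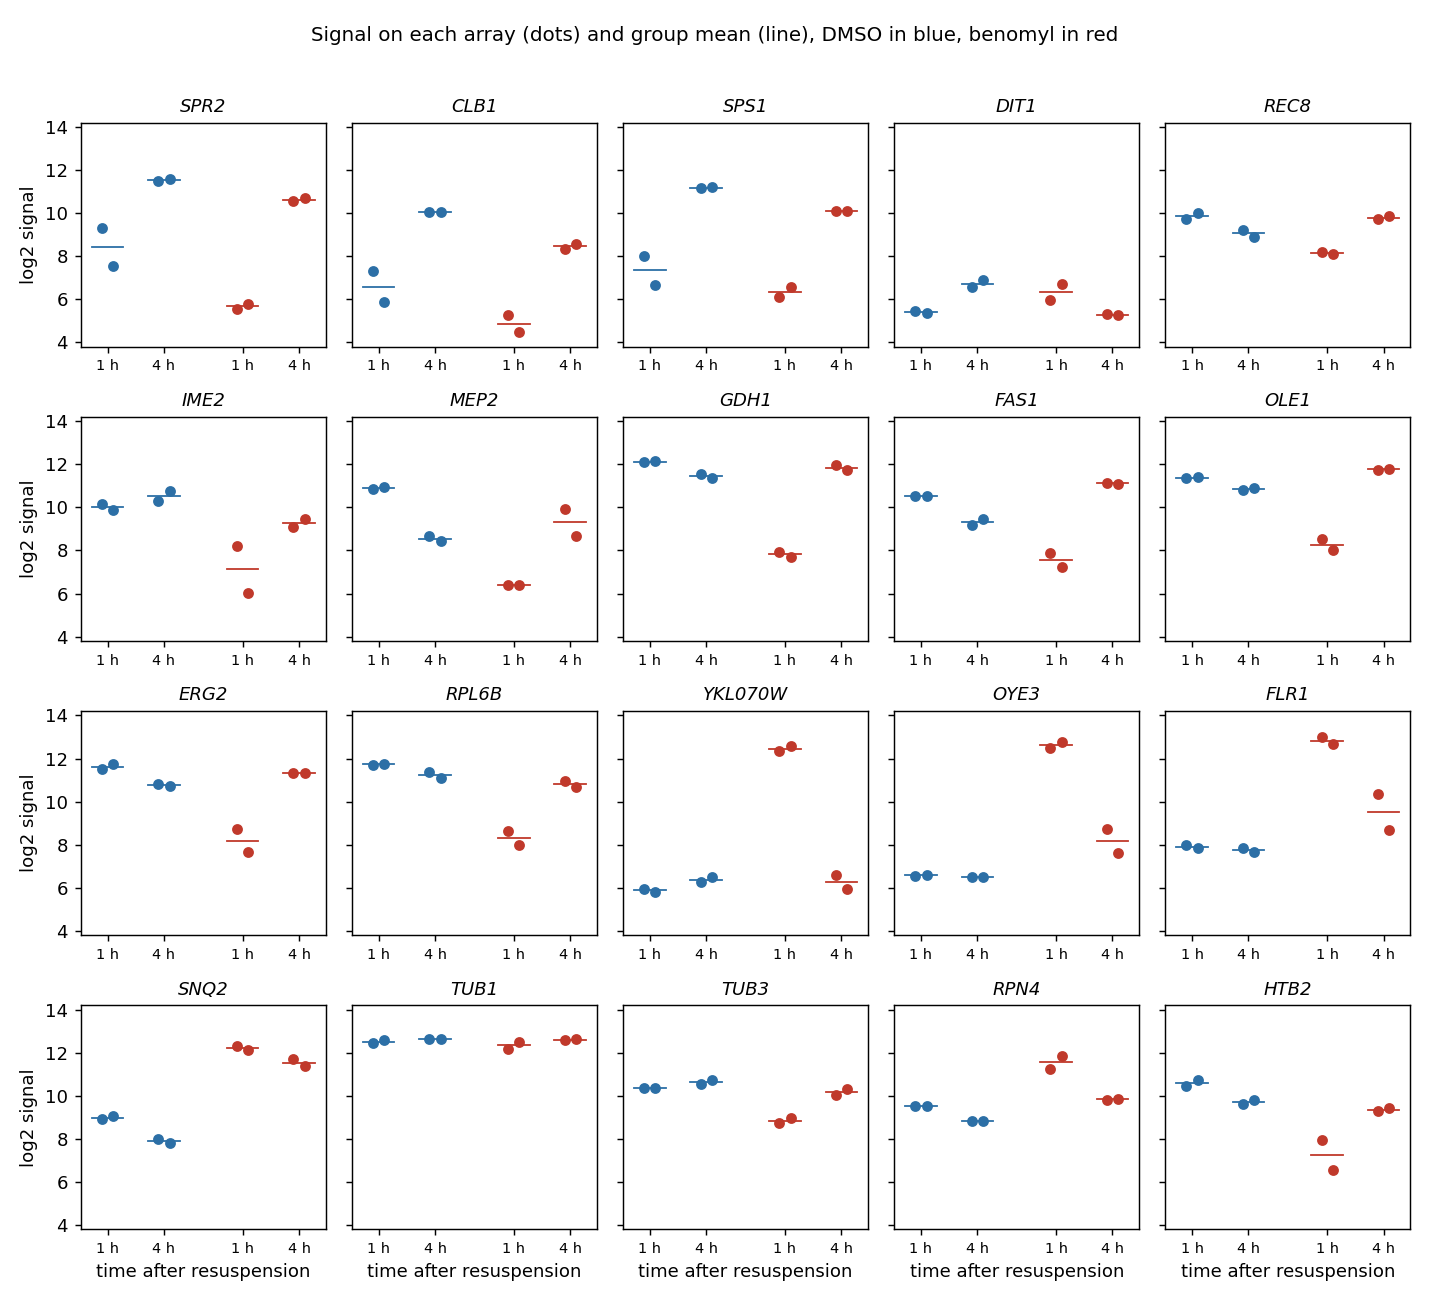
Log2 signal of 20 genes on each array (dots) with the mean of 2 arrays (line), for DMSO in blue and benomyl in red at 1 h and 4 h after resuspension. SPR2, CLB1 and SPS1 rose in both courses, MEP2, GDH1 and FAS1 rose under benomyl from a low 1 h level and fell in DMSO, YKL070W and OYE3 were high at 1 h of benomyl, and SNQ2 was still high at 4 h.

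Regulators upstream of spore formation rose together with it. Of 22 regulators of the meiotic divisions 21 rose and none fell, with a median of 1.64, beside 1.64 in DMSO. CLB1, the main cyclin of the meiotic divisions, had 5.25 and 4.47 at 1 h and 8.33 and 8.58 at 4 h, and DMSO had 7.31 and 5.86 at 1 h and 10.03 and 10.03 at 4 h. The rise was 3.60 ± 0.32 under benomyl (limma adjusted p = 3.21e-08) and 3.45 ± 0.32 in DMSO, a difference that did not pass (limma adjusted p = 0.803, and 0.0467 without replicate 2 of DMSO at 1 h). CLB1 was still 1.57 ± 0.32 below DMSO at 4 h. NDT80, the transcription factor of middle sporulation genes, had 6.27 and 5.86 at 1 h and 7.80 and 8.29 at 4 h, a rise of 1.98 ± 0.32. The rise in DMSO was 1.89 ± 0.32, where the levels were 7.84 and 6.87 at 1 h and 9.26 and 9.22 at 4 h. Its 4 h pair under benomyl lay below both DMSO arrays of 4 h.

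CDC5, the polo-like kinase that drives exit from pachytene, had 7.06 and 6.03 at 1 h and 9.53 and 9.97 at 4 h, a rise of 3.21 ± 0.30. CDC20, the activator of the anaphase-promoting complex that the spindle checkpoint holds back, had 7.05 and 7.88 at 1 h and 9.50 and 9.74 at 4 h, against 8.65 and 8.12 at 1 h and 11.31 and 11.19 at 4 h in DMSO. CDC20 rose in both, by 2.16 ± 0.22 and 2.86 ± 0.22. The difference did not pass (limma adjusted p = 0.0718), though it did without replicate 1 of benomyl at 1 h (0.00144) or without replicate 1 of DMSO at 1 h (0.025). MAM1, a subunit of the monopolin complex that attaches sister kinetochores to one pole, rose by 2.54 ± 0.16. SGO1, shugoshin, the protector of centromeric cohesion, rose by 2.67 ± 0.19. At 4 h, 18 of the 22 division regulators, 22 of the 27 prospore membrane genes and 24 of the 29 spore wall genes were below DMSO, against 17.6% of all genes, with list medians of -1.16, -1.24 and -1.16. Undrugged second-set cells at 4 h had means of 8.35 for CLB1, 8.03 for NDT80, 9.72 for CDC20, 9.79 for MAM1 and 9.11 for SGO1. Under benomyl these means were 8.46, 8.05, 9.62, 9.82 and 8.93, and in DMSO 10.03, 9.24, 11.25, 10.59 and 10.22. For these genes a level below DMSO at 4 h was thus not particular to benomyl cells, and its cause was not tested.

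Genes of the earlier steps of meiosis rose under benomyl and not in DMSO. Of 32 genes of recombination and synapsis 30 rose and none fell (median 1.64). In DMSO none rose and 4 fell (median -0.34), against 19.1% of all genes rising and 30.4% falling there. The test of the difference between the courses was positive for 29 of the 32, where 28.5% of all genes were called positive and 20.8% negative. REC8, the meiotic cohesin subunit, had 8.19 and 8.12 at 1 h and 9.71 and 9.86 at 4 h under benomyl and 9.71 and 10.01 at 1 h and 9.23 and 8.90 at 4 h in DMSO. The difference between courses was 2.42 ± 0.28 (limma adjusted p = 1.58e-06). ECM11, a component of the synaptonemal complex, rose by 1.31 ± 0.14 from 10.67 and 10.78 to 11.98 and 12.08. MSH5, a crossover protein, rose by 1.65 ± 0.18 from 7.97 and 7.30 to 9.20 and 9.36. The 4 h levels of all 3 lay beside those of DMSO at 1 h, as did the list median, 8.72 and 8.80 at 4 h of benomyl beside 8.68 and 8.73 in DMSO at 1 h and 8.76 and 8.74 before filtration. At 1 h of benomyl the list median was 7.84 in replicate 1 and 6.39 in replicate 2, so that the median rise was 0.97 within scan day 1 and 2.37 within scan day 2. With only the 4 arrays in the fit, 9 of the 30 rises passed.

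The 15 regulators of meiotic entry showed 10 rises and 1 fall (median 0.89), that of the kinase gene RIM15, named after its value was seen, with 2 rises with only the 4 arrays in the fit, and 7 with array weights. Of all genes 30.1% rose and 22.9% fell. With only the 4 arrays in the fit 555 of all 5464 genes rose, a share near that of the list, and with array weights 879 did. IME1, the master activator of meiosis, had 12.14 and 10.57 at 1 h and 12.54 and 12.57 at 4 h, and only replicate 2 at 1 h stood apart from the other 3 arrays. Its rise of 1.20 ± 0.29 (limma adjusted p = 0.00204) was not called with only the 4 arrays in the fit (0.179). IME2, the kinase of meiotic entry, had 8.21 and 6.04 at 1 h and 9.10 and 9.46 at 4 h, a rise of 2.15 ± 0.42 with the same dependence (limma adjusted p = 0.000351, and 0.116). Neither reached DMSO at 1 h, which had 13.10 and 12.97 for IME1 and 10.16 and 9.86 for IME2.

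Of 24 genes of tubulins and their folding, which include the target of the drug, 7 rose and 7 fell, shares near the 30.1% and 22.9% of all genes. The falls were 3 with only the 4 arrays in the fit and 2 with array weights. The list had a median of 0.10 that turned to -0.08 with median centring, to -0.03 under a stricter filter and to -0.04 without replicate 1 at 1 h. TUB1, the major alpha-tubulin, had 12.17 and 12.52 at 1 h and 12.59 and 12.62 at 4 h. No change was called (difference 0.26 ± 0.14, limma adjusted p = 0.12). The sign turned under both other scalings (-0.02 and -0.22), and a rise was called without replicate 2 at 1 h (0.43, adjusted p = 0.0203). TUB3, the minor alpha-tubulin, had 8.73 and 8.97 at 1 h and 10.06 and 10.31 at 4 h. Its 2 times did not overlap, a rise of 1.33 ± 0.13 (limma adjusted p = 1.05e-07) to just under the 10.56 and 10.74 of DMSO. TUB2, the beta-tubulin that benomyl binds, had 11.32 and 11.23 at 1 h and 12.01 and 12.19 at 4 h, a rise of 0.82 ± 0.10. TUB4, gamma-tubulin, had 5.88 and 5.75 at 1 h and 6.69 and 6.76 at 4 h, a rise of 0.91 ± 0.12. CCT2, a subunit of the chaperonin that folds tubulin and actin, went the other way, by -1.37 ± 0.13, from 10.93 and 11.06 to 9.57 and 9.68.

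Among 20 motors and microtubule-associated proteins 10 rose and 2 fell, among 16 spindle pole body genes 9 rose and 2 fell, among 32 kinetochore genes 14 rose and 3 fell, and among 12 spindle checkpoint genes 6 rose and none fell. Of all genes 30.1% rose, and these counts depended on the fit. With only the 4 arrays in the fit the rises were 2, 4, 0 and 1. Without replicate 2 at 1 h they were 9, 7, 5 and 4. The 3 kinetochore genes that fell were ASK1, CNN1 and CNL1, and NUD1 fell beside CDC31 in the spindle pole body, named here after their values were seen. STU2, a microtubule polymerase, had 7.71 and 8.35 at 1 h and 9.69 and 9.81 at 4 h. Its rise of 1.73 ± 0.20 was smaller than in DMSO by 0.98 ± 0.29 (limma adjusted p = 0.00984, and 0.0871 with only the 8 arrays of the courses in the fit). ASE1, which bundles the microtubules of the spindle midzone and was picked after its values were seen, fell under benomyl and rose in DMSO. It had 8.22 and 9.56 at 1 h and 7.50 and 7.59 at 4 h under benomyl, with a wide 1 h pair, and 6.83 and 6.78 at 1 h and 8.67 and 8.75 at 4 h in DMSO. The 2 courses differed by -3.25 ± 0.40 (limma adjusted p = 3.84e-06), though the fall of 1.34 ± 0.28 itself did not pass with only the 4 arrays in the fit (0.12). IRC15, a microtubule-associated protein, fell by 1.39 ± 0.12 from 9.46 and 9.05 to 7.84 and 7.89. CDC31, centrin of the spindle pole body, fell by 2.49 ± 0.21 from 9.96 and 10.60 to 7.82 and 7.76. MAD2, a core protein of the checkpoint, had 7.99 and 7.71 at 1 h and 7.69 and 7.73 at 4 h. No change was called (-0.14 ± 0.16, limma adjusted p = 0.483), and the sign turned with the values as deposited and within scan day 2.

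The lists of nitrogen uptake, ergosterol synthesis, fatty acid synthesis, ribosomal proteins, respiration and amino acid synthesis had medians above 0 under benomyl and below 0 in DMSO under all 3 scalings of the data. The DMSO median over all genes was itself below 0: -0.204, -0.071 with the values as deposited and -0.178 with median centring. That of the fatty acid and phospholipid list was -0.304, -0.072 and -0.179, so under the last 2 scalings it did not stand apart from all genes. Of 34 genes of nitrogen uptake and catabolism 21 rose and 4 fell (median 1.07), while 26 fell in DMSO (median -0.94), and the difference was called positive for 23. The 4 genes that fell, GDH2, GLT1, PUT1 and UGA1, named after their values were seen, include enzymes that break down or recycle glutamate, proline and GABA. GDH1, the glutamate dehydrogenase that assimilates ammonium, had 7.92 and 7.71 at 1 h and 11.98 and 11.72 at 4 h, against 12.08 and 12.17 at 1 h and 11.55 and 11.35 at 4 h in DMSO. The 1 h benomyl pair stood more than 3 log2 units below the other 6 arrays, and the rise was 4.03 ± 0.17 (limma adjusted p = 3.2e-12). MEP2, the high-affinity ammonium transporter, had 6.38 and 6.38 at 1 h and 9.94 and 8.67 at 4 h, against 10.88 and 10.95 at 1 h and 8.66 and 8.42 at 4 h in DMSO. The courses differed by 5.30 ± 0.38 (limma adjusted p = 8.82e-09), the largest positive difference of any named gene. AGP1, a broad amino acid permease, rose by 3.57 ± 0.16 from 8.43 and 7.95 to 11.99 and 11.53. GAP1, the general amino acid permease, rose by 2.35 ± 0.26 from 7.96 and 8.90 to 11.24 and 10.32. The count of 21 was 7 with only the 4 arrays in the fit.

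Lipid synthesis moved the same way. Of 25 genes of ergosterol synthesis 23 rose and none fell (median 1.21), against a median of -0.59 in DMSO, and 9 of the rises passed with only the 4 arrays in the fit. ERG2, the sterol isomerase, had 8.72 and 7.66 at 1 h and 11.35 and 11.32 at 4 h. ERG3, the sterol desaturase, had 8.61 and 8.13 at 1 h and 11.01 and 10.86 at 4 h. They rose by 3.15 ± 0.21 and 2.56 ± 0.17 (limma adjusted p = 1.09e-09 and 8.84e-10). Of 21 genes of fatty acid and phospholipid synthesis, a list added after the values were seen, 17 rose and none fell (median 1.47), and 15 to 18 did so in every other fit of the counts. FAS1, a subunit of fatty acid synthase whose probe set can match near-identical copies and is uncertain, had 7.87 and 7.23 at 1 h and 11.15 and 11.07 at 4 h. OLE1, the fatty acid desaturase, had 8.53 and 8.02 at 1 h and 11.75 and 11.77 at 4 h. INO1, which makes inositol phosphate for phospholipids, had 8.84 and 8.38 at 1 h and 11.46 and 11.60 at 4 h. All 3 ended above DMSO at 4 h, by 1.78 ± 0.26, 0.91 ± 0.14 and 0.96 ± 0.16.

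Of 51 tested cytosolic ribosomal protein genes 44 rose and 2 fell (median 1.15), the 2 being RPL3 and RPL10, named after their values were seen, while 47 fell in DMSO (median -0.70). RPL6B, a protein of the large subunit, had 8.63 and 7.98 at 1 h and 10.95 and 10.68 at 4 h, against 11.71 and 11.77 at 1 h and 11.38 and 11.09 at 4 h in DMSO. The list median went from 8.91 and 8.79 to 10.16 and 9.84, beside 10.22 and 10.11 in DMSO at 4 h, where 44 of the 51 were not called between benomyl and DMSO. The other 28 listed genes had no probe set of 1 gene and were not tested. Of 41 genes of the tricarboxylic acid cycle and respiration 26 rose and none fell (median 0.45), 7 of them with only the 4 arrays in the fit and 14 with array weights. FUM1, fumarase, rose by 2.28 ± 0.16 from 10.08 and 10.43 to 12.52 and 12.54. Of 43 genes of amino acid biosynthesis 23 rose and 8 fell (median 0.60), 12 and 0 with only the 4 arrays in the fit, and 3 fell without replicate 2 at 1 h or without replicate 2 at 4 h. ARG4, the last enzyme of arginine synthesis, rose by 3.17 ± 0.25 from 8.40 and 9.43 to 12.17 and 12.00. HTB2, a histone H2B gene, had 7.95 and 6.54 at 1 h and 9.29 and 9.42 at 4 h, a rise of 2.11 ± 0.27 (limma adjusted p = 3.65e-06, and 0.0572 with only the 4 arrays in the fit).

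**Figure D3:**
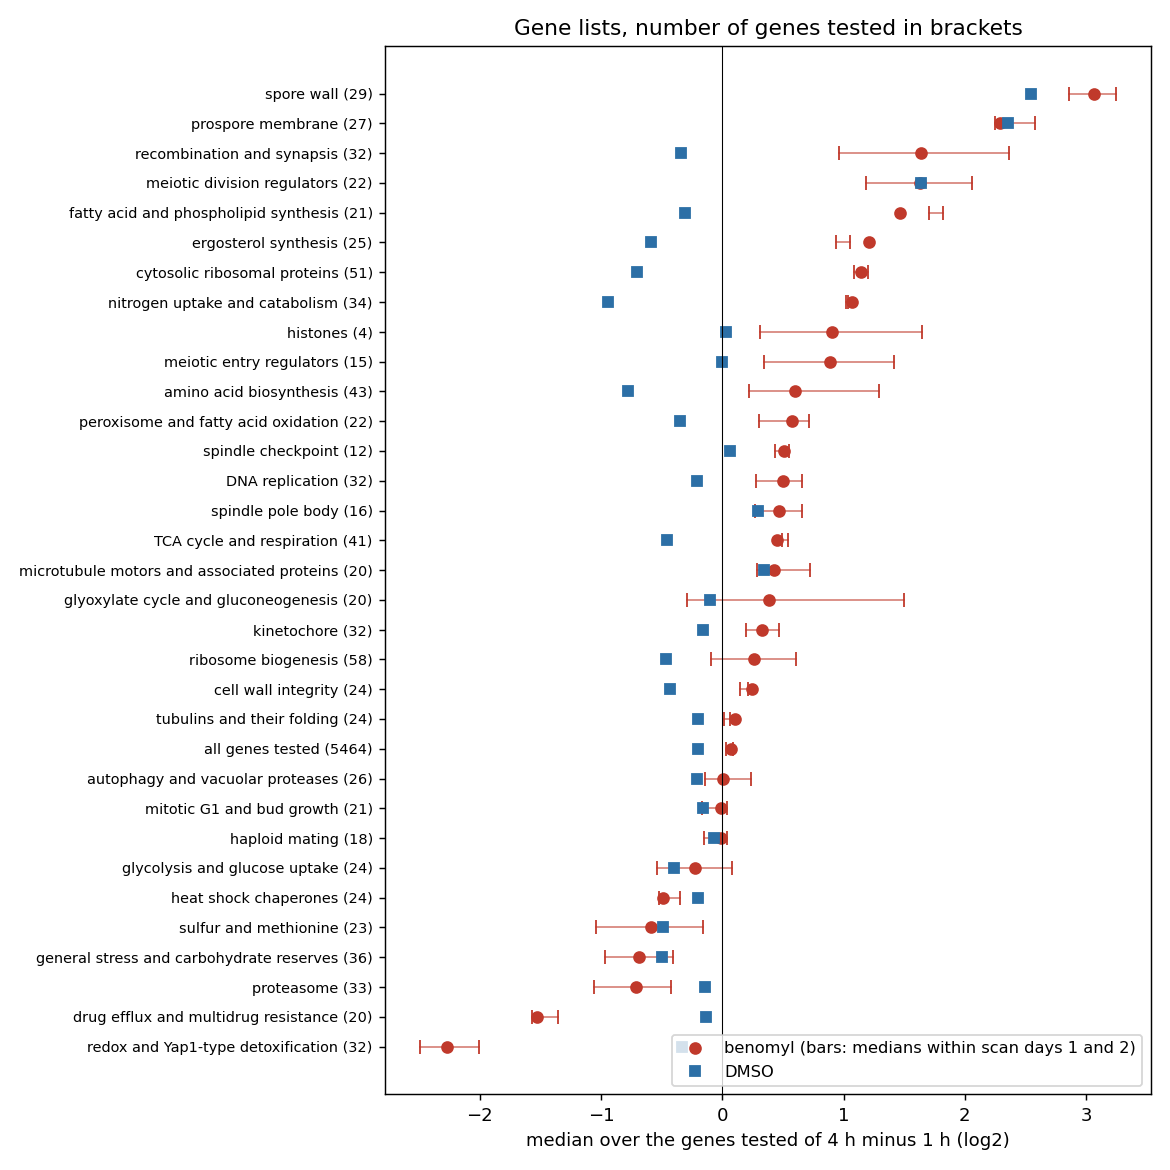
Median 4 h minus 1 h difference (log2) over the genes of each list, for benomyl (red circles) and DMSO (blue squares), with the number of genes tested in brackets and bars from the benomyl median within scan day 1 to that within scan day 2. A bar need not hold the circle, since each is a median of its own differences. Spore wall, prospore membrane and division lists have like medians in both courses, whereas recombination, lipid, ribosomal protein and nitrogen lists lie above 0 under benomyl and below 0 in DMSO. The median over all genes tested is 0.07 under benomyl and -0.20 in DMSO.

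The 2 time courses share no array and could be set against each other. In DMSO, 3434 probe sets (43.6%) were called, 1399 up and 2035 down, and the difference between the courses was called for 3601 (45.7%), 1907 positive and 1694 negative. With the values as deposited the DMSO split was 1702 up and 1200 down. Of the 1952 probe sets called in both courses, 1107 changed in the same direction and 845 in opposite directions, 649 of them up under benomyl and down in DMSO. Across 5464 genes the 2 courses had a Pearson correlation of 0.301, as a description, since genes are not independent replicates. The 738 probe sets that rose at least 2-fold in DMSO had a median change of 0.57 under benomyl: 415 of them (56.2%) rose, 74 fell and 249 were not called, where 25.5% of all probe sets rose. The rise was called smaller under benomyl for 522 of the 738 and larger for 32. These 2 counts are biased, since the DMSO rise by which the 738 were chosen is part of the difference. The choice itself favours a smaller rise under benomyl. Conversely, of the 798 that rose at least 2-fold under benomyl, 294 (36.8%) rose in DMSO, where 17.8% of all probe sets rose, 232 fell and 272 were not called. Of the 646 that fell at least 2-fold under benomyl, 181 (28%) fell in DMSO, near the 25.8% of all probe sets that fell there, and 69 rose.

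Single genes marked the extremes of the difference. YRO2, which encodes a relative of the membrane protein Hsp30, had 10.49 and 11.12 at 1 h and 7.54 and 7.47 at 4 h under benomyl and 6.61 and 6.50 at 1 h and 8.20 and 7.92 at 4 h in DMSO, so that the courses differed by -4.80 ± 0.42 (limma adjusted p = 7.64e-08). YDL218W differed by -6.83 ± 0.58 and YKL070W by -6.68 ± 0.29, the largest negative differences of the named genes. On the positive side GDH1, FAS1 and AGP1 differed by 4.71 ± 0.24, 4.75 ± 0.37 and 4.56 ± 0.23, and all 3 fell in DMSO.

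**Figure D4:**
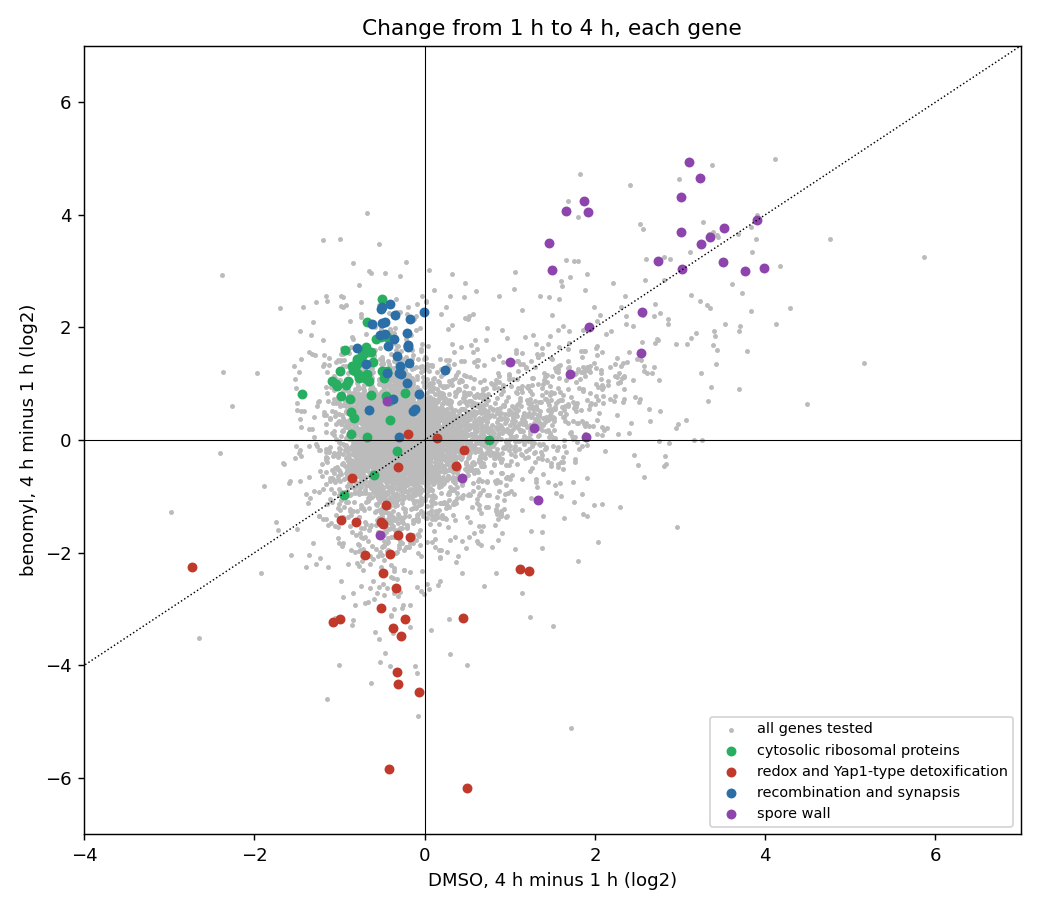
Each point is 1 of 5464 genes, with its 4 h minus 1 h difference (log2) in DMSO on the horizontal axis and under benomyl on the vertical axis, with the dotted line marking equal change. Most spore wall genes lie in the upper right, recombination and ribosomal protein genes rise with benomyl at DMSO values below 0, and redox genes lie at the bottom.

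The second set offers cells at 1 h and 4 h after filtration without benomyl or DMSO. Over that interval 638 probe sets (8.1%) were called, 431 up and 207 down, or 6.63% and 2.78% of genes. Of the 219 that rose at least 2-fold there, 194 (88.6%) rose under benomyl, where 25.5% of all probe sets rose, and 4 fell, with a median of 1.81 under benomyl and 1.66 in the second set. The lists of spore wall, prospore membrane and division genes had second-set medians of 3.21, 2.59 and 1.17. The difference between the benomyl and second-set courses was called for 2360 probe sets (30%), or 18.7% of genes positive and 15.3% negative, and for 756 with only those 8 arrays in the fit. Across 5464 genes the correlation of the benomyl course with the second-set course was 0.429.

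With all arrays in the fit, what set benomyl cells apart at 1 h was mostly not called at 4 h. At 1 h, 24.1% of genes were higher than in DMSO and 31.1% lower. Of 684 probe sets that were at least 2-fold higher at 1 h, 191 (27.9%) were still called higher at 4 h and 89 were lower, against 16.6% higher among all probe sets, and their median distance from DMSO went from 1.50 to 0.23. The share still higher depended on the fit. It was 50.3% (220 of 437) with only the arrays of each comparison in the fit and 46.4% (297 of 640) with array weights. Of 858 that were at least 2-fold lower at 1 h, 179 (20.9%) were still lower, against 15.9% lower among all probe sets, and 122 were higher, and their median distance went from -1.48 to 0.04. In the same 2 fits the share still lower was 26.1% (151 of 578) and 26.9% (216 of 804). The 191 were 297 with array weights and 129 to 305 when single arrays were left out, with 305 without replicate 1 of benomyl at 1 h and 129 without replicate 1 of benomyl at 4 h. The 3′ minus 5′ log2 signal of the actin control probes, a measure of RNA quality, was -1.05 and -0.91 on the benomyl 1 h arrays, -1.43 on both benomyl 4 h arrays and -1.59 to -1.26 in DMSO. The other 2 yeast control genes did not share this shift: that of YER022W was 2.11 and 2.30 at 1 h and 2.15 and 2.25 at 4 h of benomyl, and that of YER148W was lower at 1 h (4.17 and 3.50) than at 4 h (4.51 and 4.50). The part of RNA quality in these results was not tested.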

How the data were processed

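Total RNA of yeast was measured on 26 Affymetrix YG_S98 arrays. The deposited table holds log2 signals of 9335 probe sets (2.09 to 15.1), made by the authors with a method that is not given in the sources used here, and base 2 was inferred from the range. Deposited instrument text files for 16 arrays, per the file headers, hold settings of another kind ("other" unit), of which only the scan day was used: replicate 1 of each first-set group was scanned on day 1 and replicate 2 on day 2, apart from both YPD arrays on day 3. No scan day was at hand for the second set.

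Values were quantile normalized. The 60 control probe sets and 1399 dim ones, with no group mean above log2 5.44 (the 25th percentile of the whole table), were left out, which left 7876. Gene names came from the supplied platform annotation, checked against the RefSeq gene table, which changed 0 symbols: 6504 probe sets had 1 gene, 328 several and 2443 none. A gene with several probe sets (275) is given by the one with the highest mean. Probe sets ending in s_at, f_at or i_at can match near-identical copies and are named as uncertain in the text (AAD4, PDR5 and FAS1).

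limma 3.58.1 in R 4.3.3 was fitted with a mean for each of 13 groups over 26 arrays and an intensity trend in the variance (13 residual and 5.24 prior degrees of freedom). Calls were made at a Benjamini-Hochberg adjusted p under 0.05. The difference between 2 time courses was a contrast of contrasts. The scripts were tested on simulated data, in which the arrays of each group had that group's own spread. In the simulated benomyl course 86 of 100 probe sets changed by 1 log2 unit were called, and 99 of 100 changed by 2. So were 413 of 7676 unchanged ones, so that most calls there were false. An adjusted p under 0.05 is meant to hold false calls to that share of all calls, and it did not do so there. Far fewer probe sets were changed in the simulation than the 3895 called in the data, so the false share of calls need not be the same in the data. Calls of the benomyl course may therefore be less sure than their adjusted p states. Array number and signal over background limit precision, with n = 2 per group.

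Replicate numbers were not taken as pairs: residual correlations between groups ran from -0.155 to 0.104 among the 4 groups of the courses, and -0.139 between the 2 benomyl groups.

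The arrays compared, the 32 gene lists (911 genes) and the naming rule were chosen with earlier results of these data known. The rule names the 10 largest rises and 10 largest falls among called genes with 1 gene per probe set and groups that do not overlap, the 5 largest differences between the courses each way, up to 4 genes of each list by adjusted p, and 27 genes in any case. Names outside it are marked in the text. Alternatives covered scaling, filter, variance trend, arrays in the fit, array weights, replicate block, scan day and leaving out each array. No promoter sequence was analysed here, so the planned motif count was not made.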

Additional observations from a re-analysis of the deposited data

Results flagged for a closer look

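Results are given here because the change from 1 h to 4 h differed between benomyl and DMSO by a contrast of contrasts in limma (Benjamini-Hochberg adjusted p under 0.05). Over all probe sets that was the case for 3601. The values in brackets are the benomyl change minus the DMSO change, on the log2 scale, and the p of each gene described in most detail stands in the report.

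Among genes of the chemical response the difference was negative for YKL070W (-6.68), FRM2 (-5.43), OYE3 (-4.41), AAD4 (-4.02), YLR460C (-3.79) and GRE2 (-2.97), for the redox enzymes TRR1 (-2.15) and GLR1 (-2.18), and for the regulator YAP1 (-1.62). The efflux genes among them were AZR1 (-4.83), YHK8 (-4.05), FLR1 (-3.14), PDR5 (-1.69) and PDR10 (-1.58). Other genes with a negative difference were YDL218W (-6.83), YRO2 (-4.80), ALD6 (-3.45), HSP30 (-3.68), SPI1 (-3.00), RPN4 (-1.02) and PRE8 (-0.98). The probe sets of AAD4, PDR5 and FAS1 are uncertain.

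Genes of sporulation split. The rise was larger under benomyl for SPR2 (1.84), RRT5 (1.51), YEH1 (2.90), RRT12 (1.41), YDL186W (1.65), PES4 (2.12), CDA1 (1.31), SPO19 (2.56) and CDA2 (2.37), all of which stood lower at 1 h of benomyl than at 1 h of DMSO. The difference was also positive for the regulators and meiotic genes IME1 (1.83), IME2 (1.64), CDC5 (1.55), MAM1 (1.08), SGO1 (0.78), REC8 (2.42), ECM11 (1.59) and MSH5 (1.84). In DMSO itself MAM1 and SGO1 rose (1.46 and 1.89), REC8 fell (-0.79), and no change was called for ECM11 and MSH5. The rise was smaller under benomyl for SGA1 (-1.19), DIT1 fell under benomyl and rose in DMSO (-2.39), and the change of SPS100 was more negative under benomyl (-1.17).

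Other genes with a positive difference were MEP2 (5.30), GDH1 (4.71), AGP1 (4.56) and GAP1 (4.05) in nitrogen uptake and catabolism, FAS1 (4.75), OLE1 (4.02), INO1 (3.21), ERG2 (3.99) and ERG3 (3.55) in lipid synthesis, and RPL6B (3.02), ARG4 (3.38), FUM1 (2.61) and HTB2 (2.99). Among genes of microtubules and the spindle the difference was positive for TUB2 (0.54), TUB3 (1.06) and TUB4 (1.20) and negative for MAD2 (-0.64), CCT2 (-0.60), STU2 (-0.98), IRC15 (-1.12), CDC31 (-1.88) and ASE1 (-3.25). With only the 8 arrays of the courses in the fit, 13 of these differences no longer passed (SPR2, RRT5, RRT12, YDL186W, CDA1, IME2, CDC5, SGO1, SGA1, TUB2, MAD2, CCT2 and STU2). Those of RRT12, YDL186W, CDA1, IME2, SGO1, SGA1, MAD2, CCT2 and STU2 were also lost when some single array was left out. With scan day as a block those of CDA1, IME2 and SGO1 did not pass (limma adjusted p = 0.065, 0.0798 and 0.0697), with array weights those of SPR2, RRT12, YDL186W, CDA1, SGO1, TUB2, MAD2, CCT2 and STU2 did not, and with the first set alone those of YDL186W, CDA1, IME2 and SGO1 did not. That of TUB2 was also lost with the values as deposited (0.30, adjusted p = 0.129) and with median centring (0.21, adjusted p = 0.279), and that of MAD2 with the values as deposited (adjusted p = 0.0666). No group had 4 arrays or more, so no array was tested as an outlier.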

How the results depend on the processing

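With n = 2 arrays per group the counts rest on a spread pooled over all groups, and the benomyl 1 h pair was wider than that. With only the arrays of the comparison in the fit, the benomyl course gave 1230 called probe sets in place of 3895, its difference from the second-set course 756 in place of 2360, benomyl at 4 h against DMSO at 1 h 1635 in place of 925, and the DMSO-course genes that also rose or fell under benomyl 252 in place of 415 and 29 in place of 69. With array weights the same counts were 1955, 1079 and 2162, and 297 probe sets in place of 191 were still higher at 4 h. With the values as deposited, the DMSO-course genes that also fell under benomyl were 30. Leaving out single arrays moved the benomyl course to between 2998 and 4326, the DMSO course to 2352 to 2765, their difference to 2976 to 4252, that from the second set to 1725 to 3289, benomyl at 4 h against DMSO at 1 h to 439 to 622 (595 and 439 without benomyl 4 h replicates 1 and 2, 459 without DMSO 1 h replicate 2), the probe sets still higher at 4 h to 129 to 305 and still lower to 121 to 264, and the DMSO-course genes to 351 to 422 rising and 51 to 88 falling. With the replicate number as a block the benomyl course gave 3900, and the block moved no count by over 1.5 times; crossed numbers gave 3922 and scan day as a block 3934. Within 1 scan day each group has 1 array, so no count was possible there. The TUB1 change was -0.018 with the values as deposited and -0.218 with median centring, and that of MAD2 was 0.047 as deposited and 0.016 within scan day 2. Between the courses, differences not called with all arrays turned sign when single arrays were left out, with ranges of -0.056 to 1.795 for YPR078C, -0.387 to 0.579 for NDT80, -0.57 to 0.877 for CLB1, -0.731 to 0.625 for SPS1, -0.366 to 0.992 for SMK1 and -0.033 to 0.314 for TUB1. The upper ends for YPR078C, CLB1 and SMK1 and both ends for SPS1 passed the test. Median centring gave 0 for NDT80, -0.006 for CLB1 and -0.319 for TUB1, and the values as deposited gave -0.225 for TUB1. Among list medians, that of tubulins was -0.08 with median centring, -0.025 under a stricter filter and -0.036 to 0.135 with single arrays left out, and that of haploid mating genes turned to 0.254 under a stricter filter. Of 544 list medians under all settings, 486 moved by less than the spread between scan days. Many of them could not move. The settings of variance trend, arrays in the fit, array weights and blocks leave the difference of 2 group means as it is. The 486 is therefore no measure of stability. The cause of these changes was not tested.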

Other observations

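Lists not described above moved unevenly between 1 h and 4 h of benomyl. Beside them, 30.1% of all genes rose and 22.9% fell. With only the 4 arrays in the fit 555 of 5464 genes rose and 365 fell, and with array weights 879 and 669. Of 23 genes of sulfur and methionine metabolism 14 fell and 3 rose (median -0.59), but 7 fell without replicate 2 at 1 h and 3 with only the 4 arrays in the fit, and at 4 h 16 of the 23 were above DMSO with a median distance of 0.99. The 3 that rose were MET13 (0.96), SUL1 (1.20, named after its value was seen) and SAM2 (1.34), the last 2 encoding a sulfate permease and an S-adenosylmethionine synthetase. Of 32 DNA replication genes 17 rose and 1 fell (median 0.50), 5 of them with only the 4 arrays in the fit. Of 22 genes of peroxisomes and fatty acid oxidation 12 rose and none fell (median 0.58), 3 with array weights and 4 with only the 4 arrays in the fit. Of 24 genes of cell wall integrity 10 rose and 3 fell (median 0.25), 4 and 0 with only the 4 arrays in the fit, and the median was 0.09 without replicate 2 at 1 h.

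Some lists had no direction. The 20 genes of the glyoxylate cycle and gluconeogenesis had a median of -0.29 within scan day 1 and 1.50 within scan day 2, with 13 rises without replicate 1 at 1 h and 4 without replicate 2. The 58 ribosome biogenesis genes had 0.61 and -0.10, and the 24 genes of glycolysis and glucose uptake 0.08 and -0.54. Autophagy and vacuolar proteases gave 5 rises and 7 falls of 26, genes of mitotic G1 and bud growth 7 and 6 of 21, haploid mating genes 3 and 4 of 18, and histones 2 and 0 of 4, where 30.1% of all genes rose and 22.9% fell. With only the 4 arrays in the fit these were 0 and 1, 3 and 5, 2 and 1, and 0 and 0. Of 275 genes with several probe sets, 4 had probe sets called in opposite directions in the benomyl course.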
